A study of Mus musculus with 15 samples.

Results

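The 10 genes of neural stem cells and the Sox family described here, of 54232 genes in the deposited tables, were followed in mouse brain tumours. They were taken as a list: Sox2, Sox4, Sox5, Sox6, Sox8, Sox9, Sox11, Nes, Vim and Prom1. RNA was sequenced in 15 libraries of tumours from the frontal cortex of C57BL/6 mice, and the groups differed in Atrx and in the histone H3.3 delivered with the tumour. All mice carried Nestin Tv-a, the avian virus receptor placed under the Nestin promoter, and p53 fl/fl, and all received DF-1 chicken cells producing RCAS-Cre and RCAS-PDGFA. The 4 groups were ATRX fl/fl with RCAS-H3.3G34R-GFP (ATRXfl_G34R, 4 libraries), ATRX fl/fl with RCAS-H3.3WT-GFP (ATRXfl_WT, 4 libraries), and the same 2 histones in mice whose Atrx was intact (p53_G34R with 3 libraries and p53_WT with 4). The p53_WT tumours therefore also carry floxed p53 and delivered PDGFA, and the tumour-starting cells were Nestin-expressing in every group, so Nes belongs to the design of the model as well as to its readout. Tumours were collected at a functional end point. The labels do not give ages, do not say whether each library is a separate mouse, and the host brain keeps its own cells.

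Sox proteins are transcription factors that bind DNA through an HMG box, a domain shared by the whole family, and they fall into subgroups by that box. Sox2 (SoxB group) maintains neural stem and progenitor cells. Sox4 and Sox11 (SoxC) act in committed precursors and immature neurons, Sox5 and Sox6 (SoxD) time the steps of oligodendrocyte precursors, and Sox8 and Sox9 (SoxE) act in glial specification beside Sox10. Nes and Vim encode intermediate filaments of radial glia and neural stem cells, Vim being made by many mesenchymal and vascular cells too. Prom1 encodes CD133, a membrane protein used to sort neural and glioma stem cells. In gliomas started by PDGF, many of these genes are also those of oligodendrocyte precursors.

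The 7 Sox genes are shown here by the same 60-base stretch of the coding sequence of the HMG box, the domain that the family shares. Sequences are from GENCODE vM21 transcripts on GRCm38 (mm10), 5′ to 3′ on the sense strand, and capitals mark bases that differ from Sox2.
Sox2: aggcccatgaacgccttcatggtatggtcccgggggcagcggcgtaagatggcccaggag
Sox4: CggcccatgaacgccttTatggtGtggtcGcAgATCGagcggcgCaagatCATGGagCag
Sox11: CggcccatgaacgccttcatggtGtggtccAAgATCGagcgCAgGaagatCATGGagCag
Sox5: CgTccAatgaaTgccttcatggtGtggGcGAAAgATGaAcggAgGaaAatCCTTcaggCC
Sox6: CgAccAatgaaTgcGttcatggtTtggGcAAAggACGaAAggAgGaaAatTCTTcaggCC
Sox8: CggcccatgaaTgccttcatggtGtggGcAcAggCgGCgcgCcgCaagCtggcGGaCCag
Sox9: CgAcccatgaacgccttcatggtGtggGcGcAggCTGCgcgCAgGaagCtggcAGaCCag

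Partners of a subgroup were the closest. Sox4 and Sox11 differed at 6 of the 60 bases (90.0% identical), Sox8 and Sox9 at 7 (88.3%), and Sox5 and Sox6 at 8 (86.7%). Against Sox2, the other 6 differed at 16 to 24 bases. The longest stretch that 2 of the 7 transcripts share without a mismatch ran from 10 bases, for Sox2 and Sox6, to 48 bases, for Sox4 and Sox11, and a read lying inside such a stretch matches both. These stretches were sought over whole transcripts, and their place was not recorded, so they need not lie in the HMG box. Sox genes outside these 7 were not compared. The read length is not given in the sources used here. In mm10, Sox2 lies on chromosome 3 (34650405 to 34652461), inside the longer noncoding gene Sox2ot on the same strand but sharing no exon with it. Sox4 lies on chromosome 13 (28948919 to 28953713), Sox11 on chromosome 12 (27334264 to 27342574), Sox5 on chromosome 6 (143828425 to 144781977) and Sox6 on chromosome 7 (115470872 to 116038796). Sox8 lies on chromosome 17 (25565892 to 25570686), Sox9 on chromosome 11 (112782224 to 112787760), Nes on chromosome 3 (87971078 to 87980451), Vim on chromosome 2 (13573927 to 13582826) and Prom1 on chromosome 5 (43993620 to 44102032). Exons of Sox4, Sox5, Sox8 and Prom1 overlap those of a gene on the opposite strand (Gm26735, Sox5os1, 2810468N07Rik and Gm16401), and the strand setting of the counting is not given, so reads of the overlap cannot be assigned with certainty for these 4 genes.

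Libraries held 22807315 to 35679129 reads in genes. Values of single libraries are read counts divided by 1 size factor for each library, set over all 15 (normalized counts). Atrx, the targeted gene, stood at 3124 or less in the 8 floxed libraries and at 5143 or more in the 7 intact ones, the floxed mean being 35.5% of the intact mean. The tumours expressed genes of oligodendrocyte progenitors (8 markers, led by Pdgfra and Olig1), with summed counts from 178230 to 342175 in ATRXfl_G34R and from 250607 to 332911 in ATRXfl_WT. The p53_G34R libraries held 175022 to 350100, and 3 of the p53_WT libraries 238926 to 512047. The fourth p53_WT library, replicate 3, held 29842. That library also held 277287 counts over 10 mature neuron markers, against 901 to 18632 in the other 14, together with 238893 over 8 astrocyte markers (18570 to 71965 in the other 14) and 1239 of Pdgfa (10267 or more in the others). Second in mature neuron markers was ATRXfl_G34R replicate 3 with 18632. The endothelial (80720) and mural (106148) sums were highest in ATRXfl_WT replicate 1. No marker of the mature neuron, astrocyte or mature oligodendrocyte lists was at 0 in a whole group. In these bulk tumours, fewer cells of a type and less RNA per cell cannot be told apart. Log2 values of the 10 genes printed below that leaving out p53_WT replicate 3 moved by more than 1.5 times or turned are given with and without it.

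Ordered by level per kilobase of exon (median of 15 libraries), the 10 genes ran from Vim at 4584 through Sox2 (2411), Nes (1570), Sox8 (1322), Sox6 (727), Sox4 (660), Sox11 (405), Sox9 (257) and Sox5 (127) to Prom1 at 25.4. Every pair of neighbours in this order overlapped across the libraries. Over all 15 libraries, Nes was the steadiest, its highest library being 3.2 times its lowest. The widest ranges were those of Sox6 (14.4 times), Sox8 (13.1 times) and Vim (13.1 times). This order leaned on p53_WT replicate 3, which had the lowest Sox4 (602 normalized counts) and Sox6 (1077). Without that library, Sox4 ran from 2111 to 4614, a smaller ratio than that of Nes (4793 to 15572). Sox6 then ran from 3866 to 15531.

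**Figure D1:**
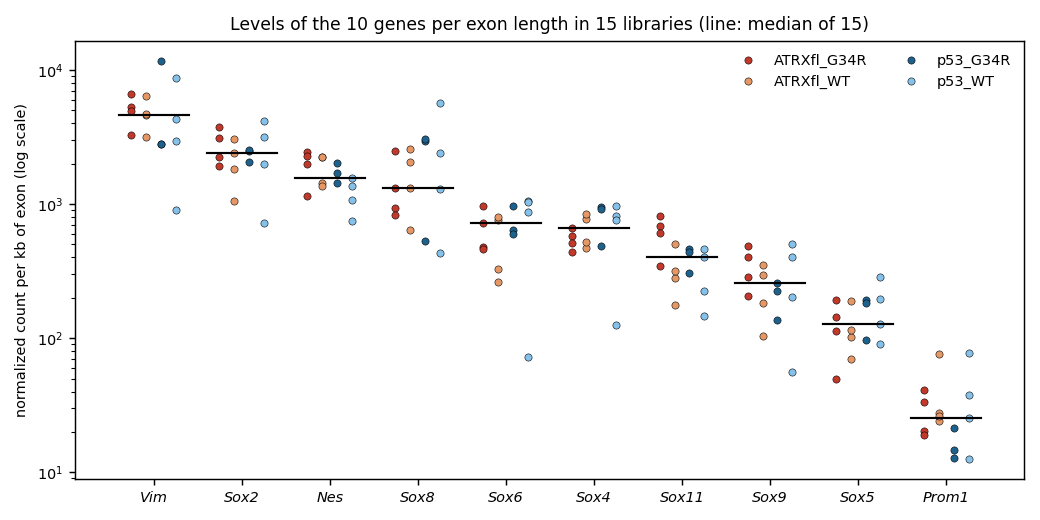
Normalized counts per kilobase of exon on a log axis for the 10 genes, each point a library coloured by group and each line the median of 15. Vim was highest (median 4584) and Prom1 lowest (25.4). The groups overlapped for each gene, except that ATRXfl_WT lay wholly above p53_G34R for Prom1.

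Sox2, the stem cell factor, had 6447, 4634, 3981 and 7700 normalized counts in ATRXfl_G34R, 2176, 3765, 6343 and 4960 in ATRXfl_WT, 5130, 4202 and 5173 in p53_G34R, and 4122, 8564, 1478 and 6486 in p53_WT. The extremes both fell in p53_WT, replicate 2 being the highest of the 15 and replicate 3 the lowest. All groups overlapped.

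Sox4 had 3164, 2749, 2462 and 2111 in ATRXfl_G34R, 2254, 2488, 3733 and 4079 in ATRXfl_WT, 4570, 2327 and 4439 in p53_G34R, and 4614, 3937, 602 and 3636 in p53_WT. The p53_WT value of 602 was the lowest of the 15, and the 4 highest (4079 to 4614) lay outside ATRXfl_G34R.

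Sox11, the partner of Sox4, had 6782, 5688, 2874 and 5030 in ATRXfl_G34R, 1462, 2328, 4219 and 2629 in ATRXfl_WT, 2538, 3839 and 3654 in p53_G34R, and 1880, 3367, 1224 and 3847 in p53_WT. ATRXfl_G34R replicates 1, 2 and 4 stood above all 11 libraries of the other groups. Replicate 3 of that group, the one rich in neuron and myelin transcripts, stood inside their range, so the groups overlapped.

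Sox5 had 1622, 2061, 2751 and 710 in ATRXfl_G34R, 1009, 1458, 1668 and 2743 in ATRXfl_WT, 1387, 2781 and 2653 in p53_G34R, and 4093, 2801, 1306 and 1827 in p53_WT. Its partner Sox6 had 7102, 14289, 10783 and 6852 in ATRXfl_G34R, 4908, 3866, 11234 and 11934 in ATRXfl_WT, 9531, 8904 and 14445 in p53_G34R, and 12956, 15531, 1077 and 15252 in p53_WT. For Sox6, 3 of the p53_WT libraries were among the 5 highest and the remaining one was the lowest of all.

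Sox8 had 2920, 4122, 7795 and 2573 in ATRXfl_G34R, 6429, 1997, 8009 and 4112 in ATRXfl_WT, 1652, 9185 and 9545 in p53_G34R, and 17617, 7478, 1343 and 4012 in p53_WT. Sox9, the other SoxE member, had 2009, 860, 1187 and 1665 in ATRXfl_G34R, 428, 761, 1446 and 1219 in ATRXfl_WT, 565, 933 and 1063 in p53_G34R, and 231, 845, 1658 and 2100 in p53_WT. The pair went opposite ways in p53_WT replicate 1, which was the highest of 15 in Sox8 and the lowest of 15 in Sox9.

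Nes, the gene whose promoter drives the virus receptor, had 15572, 12824, 7390 and 14751 in ATRXfl_G34R, 14408, 9196, 14346 and 8687 in ATRXfl_WT, 12902, 10852 and 9251 in p53_G34R, and 4793, 10071, 6835 and 8755 in p53_WT. The 4 highest libraries were all Atrx-floxed, and 2 of the p53_WT libraries were the lowest of all.

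Vim had 25318, 23398, 15512 and 31568 in ATRXfl_G34R, 30370, 21743, 22259 and 15079 in ATRXfl_WT, 55678, 13421 and 13385 in p53_G34R, and 4252, 20345, 41210 and 14103 in p53_WT. Its spread lay in the intact groups, with an SD of 18353 over 7 libraries, against 6024 over the 8 floxed ones at nearly the same mean (23156 floxed, 23199 intact). The medians were farther apart, at 22829 floxed and 14103 intact, the values of 55678 and 41210 raising the intact mean.

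Prom1, near the floor of the list, had 239, 146, 297 and 135 in ATRXfl_G34R, 174, 548, 200 and 190 in ATRXfl_WT, 91.5, 106 and 153 in p53_G34R, and 182, 90.4, 558 and 269 in p53_WT. Values of 548 and 558 in 1 library of each H3.3WT group stood well above the others.

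**Figure D2:**
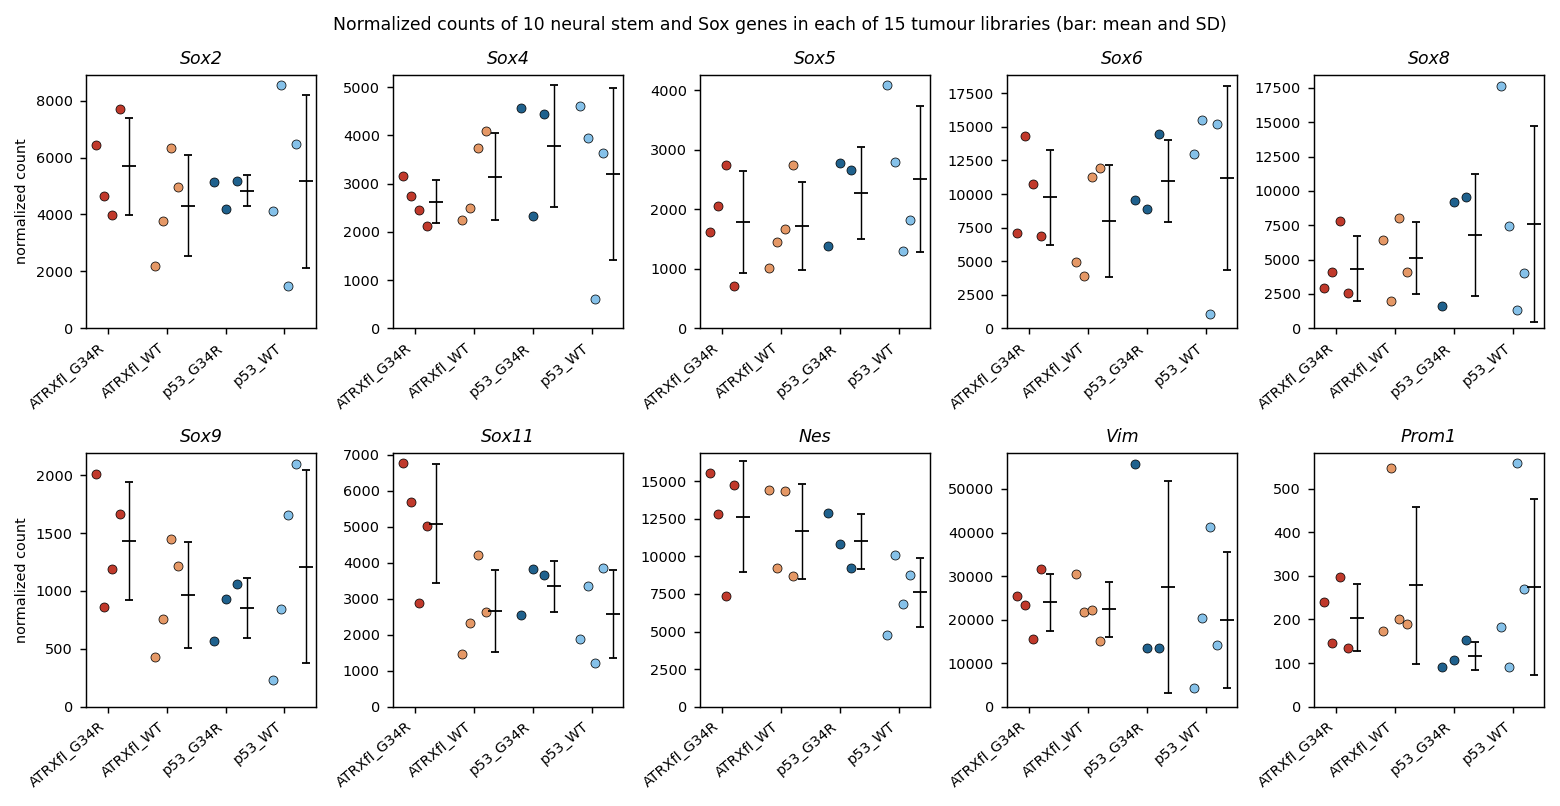
Normalized counts of each gene by group, with each point a library and each bar the mean and SD of the group (n = 4, 4, 3 and 4). The groups of each comparison overlap for all 10 genes, Sox11 being highest in 3 of the 4 ATRXfl_G34R libraries (5030 to 6782). Between ATRXfl_WT and p53_G34R, a pair that was not tested, Prom1 does not overlap (174 or more against 153 or less).

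Each of 8 comparisons was tested with limma on log2(value + 1) over all genes whose mean reached 10, calling those whose Benjamini-Hochberg adjusted p fell under 0.05. All 10 genes entered each test. None was called in any comparison, and for none of the 10 did the groups of a comparison stand apart. Of all tested genes, the groups stood apart without overlap for 2.16% in ATRXfl_G34R against ATRXfl_WT, 2.61% in p53_G34R against p53_WT, 4.64% in ATRXfl_G34R against p53_G34R, 2.65% in ATRXfl_WT against p53_WT and 2.94% in ATRXfl_G34R against p53_WT. Over all libraries that share was 0.135% for floxed against intact and 0.0113% for G34R against WT. DESeq2, edgeR and limma-voom on the recovered reads also called 0 of the 10, and the authors' deposited table of each of the 5 pairs holds 0 past that threshold. At an unadjusted p under 0.05, limma marked Sox11 in 3 comparisons and no other member. Of all tested genes, limma called 0 for ATRXfl_G34R against ATRXfl_WT and 0 for p53_G34R against p53_WT, 0.0229% for ATRXfl_G34R against p53_G34R, 0.0335% for ATRXfl_WT against p53_WT and 0.0227% for ATRXfl_G34R against p53_WT. Over all libraries it called 0.107% for Atrx floxed against intact, 0 for G34R against WT and 0 for the interaction. The deposited tables hold 0.182%, 0.0578%, 0.538%, 0.352% and 0.380% of the genes that have an adjusted p, in the order of the 5 pairs just given. These tests thus call few genes of any kind at 3 or 4 libraries a group.

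**Figure D3:**
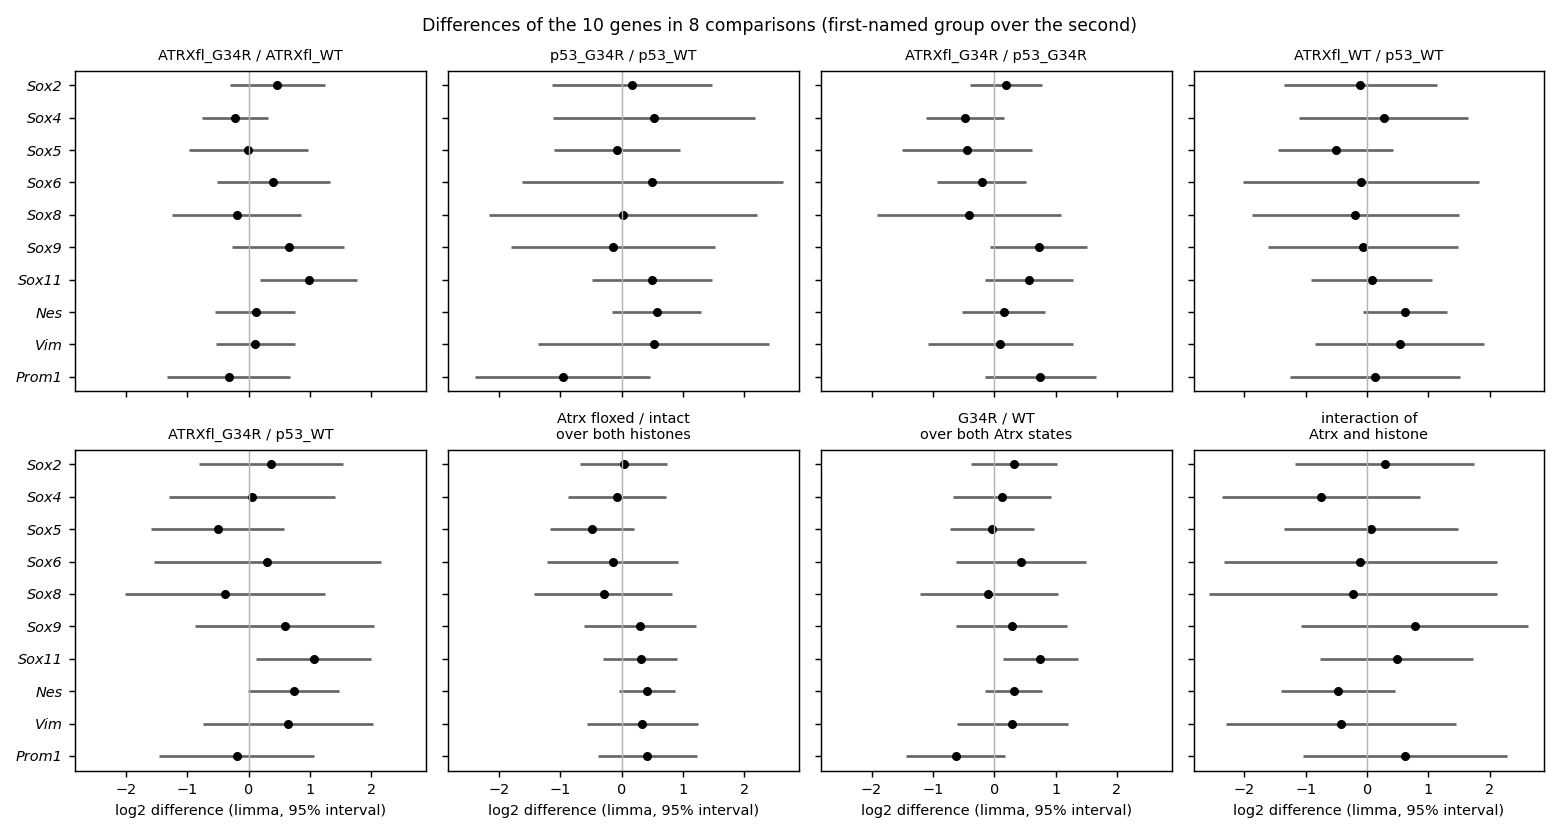
Log2 differences (first-named group over the second) with 95% intervals from limma, for 10 genes in 8 comparisons. Sox11 is the only gene whose interval leaves out 0, in ATRXfl_G34R over ATRXfl_WT (0.18 to 1.77), ATRXfl_G34R over p53_WT (0.12 to 2.0) and G34R over WT (0.14 to 1.36).

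In Atrx-floxed tumours, the comparison of H3.3G34R with H3.3WT asks what the histone substitution adds once Atrx is targeted. Sox11 averaged 5012 ± 1627 in ATRXfl_G34R and 2607 ± 1131 in ATRXfl_WT (SD, n = 4 each). Its log2 difference was 0.98 (SE 0.36, 95% interval 0.18 to 1.77, limma unadjusted p = 0.0215, adjusted p = 0.999677). It was 1 of 10 members at that unadjusted level, where 2.79% of all tested genes lay, and it does not pass over all genes. In the authors' deposited table the Sox11 log2 value is 0.94 (SE 0.40) with an adjusted p of 0.792. Leaving out each library in turn gave log2 values of 0.72 to 1.23 and unadjusted limma p-values of 0.00564 to 0.0629, the smallest value being without ATRXfl_WT replicate 1. ATRXfl_G34R replicates 1 and 4 share the first code of their title. So do p53_G34R replicates 2 and 3, and p53_WT replicates 3 and 4. Within each of these pairs the second code of the title differs. Of Xist, read because sex is not labelled, p53_G34R replicates 2 and 3 had 6.92 and 42096 normalized counts. Summing the ATRXfl_G34R libraries of the shared code gave a Sox11 log2 value of 0.89 (limma unadjusted p = 0.0506). Sox4, the Sox member closest to Sox11 in the HMG box stretch shown, averaged 2578 ± 438 in ATRXfl_G34R and 3077 ± 892 in ATRXfl_WT (log2 -0.22, 95% interval -0.76 to 0.31).

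Marker lists of other cell types were read in the same pair, and limma called 0 genes of each. The 7 tested early neuron markers, genes of the immature neurons in which Sox11 is known, were all numerically higher in ATRXfl_G34R (median log2 0.37, 0 at an unadjusted p under 0.05). Also numerically higher throughout were the 10 mature neuron markers (median 2.22, 5 at an unadjusted p under 0.05), the 8 mature oligodendrocyte markers (median 0.55), the 8 proliferation markers (median 0.59) and the 6 red blood cell markers (median 1.22), each of the last 3 lists with 0 at that level. The other lists were mixed, from 1 of 8 endothelial markers higher (median -0.34) and 2 of 8 oligodendrocyte progenitor markers (-0.03) to 7 of 8 astrocyte markers (0.18). The median of all tested genes was -0.00. The part of these markers in the Sox11 value was not tested. Within ATRXfl_G34R, the library with the most mature neuron transcripts (replicate 3) had the least Sox11, and its early neuron sum of 14757 was the lowest of the group (14757 to 24852). The 2 most abundant genes of that sum differed over replicates 1 to 4. Tubb3 had 13476, 8139, 7535 and 21117, and Dcx had 3646, 5623, 2875 and 799. A link to Sox11 was not tested.

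Among the other members of this pair, Sox9 had a log2 value of 0.65 (95% interval -0.27 to 1.56) and Sox2 of 0.46 (-0.31 to 1.24). Without ATRXfl_WT replicate 1 these were 0.31 and 0.17, and with limma-voom 0.21 and 0.07. Nes (0.11) and Vim (0.10) had intervals of -0.55 to 0.76 and -0.54 to 0.75. The intervals for Nes and Vim leave out a 2-fold difference in either direction. Those for Sox8 (-1.25 to 0.85) and Prom1 (-1.34 to 0.67) do not.

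In Atrx-intact tumours, H3.3G34R against H3.3WT, no member had an unadjusted limma p under 0.05, where 1.47% of tested genes did. Nes averaged 11254 ± 1852 in p53_G34R (n = 3) and 7777 ± 2357 in p53_WT (n = 4), a log2 value of 0.57 (SE 0.31, limma unadjusted p = 0.104). Sox11 averaged 3423 ± 737 in p53_G34R and 2639 ± 1265 in p53_WT (log2 0.50, 95% interval -0.49 to 1.48), and without p53_WT replicate 3 its log2 value was 0.18. The interaction of Atrx and histone, which tests whether the H3.3G34R difference of Sox11 is larger in floxed tumours, gave a log2 value of 0.48 (SE 0.58, 95% interval -0.77 to 1.72, limma unadjusted p = 0.425, with 2.05% of tested genes under 0.05), so a difference between the 2 settings was not detectable. Without p53_WT replicate 3 the interaction value of Sox11 was 0.79 (SE 0.53). Prom1 averaged 119 ± 32.4 in p53_G34R and 280 ± 204 in p53_WT (log2 -0.96, 95% interval -2.39 to 0.47). Without p53_WT replicate 3, which held 558 of Prom1, that log2 value was -0.53.

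Taken over both Atrx states, Sox11 averaged 4344 ± 1548 in G34R (n = 7) and 2620 ± 1105 in WT (n = 8). Its log2 value was 0.75 (SE 0.29, limma unadjusted p = 0.0190, adjusted p = 0.999), with 2.37% of all tested genes at that unadjusted level. Each library left out in turn kept the unadjusted limma p between 0.00701 and 0.0442. The other 9 members had unadjusted p-values of 0.120 (Prom1, log2 -0.63) and above.

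The comparison of floxed with intact tumours asks what targeting Atrx does at a given histone. With H3.3G34R, Sox9 averaged 1430 ± 510 in ATRXfl_G34R (n = 4) and 857 ± 264 in p53_G34R (n = 3), a log2 value of 0.72 (SE 0.35, limma unadjusted p = 0.0700). Prom1 averaged 204 ± 77.1 in ATRXfl_G34R and 117 ± 32.4 in p53_G34R (0.75, unadjusted p = 0.0906). Sox4 averaged 2621 ± 454 in ATRXfl_G34R and 3780 ± 1242 in p53_G34R (-0.48, SE 0.28). Leaving out each library in turn gave Sox4 log2 values of -0.79 to -0.32 and unadjusted limma p-values of 0.0102 to 0.328. The value farthest from 0 was without p53_G34R replicate 2 (adjusted p = 0.998). With all libraries, none passed at an unadjusted p under 0.05, where 3.39% of tested genes lay. Astrocyte markers, a class in which Sox9 is known, were numerically higher in ATRXfl_G34R for 8 of 8 (median log2 0.92), their sums running from 28127 to 71965 in ATRXfl_G34R and from 25216 to 35535 in p53_G34R. Their part in the Sox9 value was not tested.

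With H3.3WT, Nes averaged 11645 ± 3146 in ATRXfl_WT and 7645 ± 2332 in p53_WT (n = 4 each), with a log2 value of 0.62 (SE 0.31, 95% interval -0.07 to 1.31, limma unadjusted p = 0.0720), where 3.76% of tested genes had an unadjusted p under 0.05. Over both histones, Nes averaged 12147 ± 3212 in floxed tumours (n = 8) and 9066 ± 2655 in intact ones (n = 7). That log2 value was 0.41 (SE 0.22, 95% interval -0.05 to 0.87, limma unadjusted p = 0.0789, adjusted p = 0.928), in a comparison where 5.48% of tested genes had an unadjusted p under 0.05. With log2 Xist as a covariate, the Nes value was 0.25. With libraries of a shared title code summed, it was 0.39 (limma unadjusted p = 0.159). Endothelial markers, from a cell type that can also express Nes, were numerically higher for 8 of 8 in floxed tumours over both histones (median log2 0.55), in ATRXfl_WT against p53_WT (0.76) and in ATRXfl_G34R against p53_WT (0.50). Their summed counts spanned 11091 to 19206 (ATRXfl_G34R), 7935 to 80720 (ATRXfl_WT), 9447 to 14563 (p53_G34R) and 7511 to 19931 (p53_WT), and their part in the Nes values was not tested. Sox5 had the opposite sign, with 1753 ± 739 in floxed and 2407 ± 982 in intact tumours (log2 -0.48, 95% interval -1.16 to 0.20).

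ATRXfl_G34R against p53_WT sets both changes against neither, and shares its libraries with the comparisons above. Xist, read because sex is not labelled, was spread unevenly. It had 6.80, 6.10, 14623 and 27.7 in ATRXfl_G34R and 36221, 1.06, 16835 and 30455 in p53_WT. With log2 Xist as a covariate, Sox11 had a log2 value of 0.72 in this pair (limma unadjusted p = 0.113), against 1.06 without it. Nes had 0.41, against 0.73. That covariate moved Sox11 from 0.98 to 0.84 in ATRXfl_G34R against ATRXfl_WT, and from 0.75 to 0.67 for G34R against WT. Sox11 averaged 4944 ± 1613 in ATRXfl_G34R and 2496 ± 1197 in p53_WT (SD, n = 4 each). Its log2 value was 1.06 (SE 0.41, 95% interval 0.12 to 2.0, limma unadjusted p = 0.0310, adjusted p = 0.999), and 4.37% of tested genes had an unadjusted p under 0.05. Nes averaged 12258 ± 3593 in ATRXfl_G34R and 7356 ± 2221 in p53_WT (log2 0.73, SE 0.33, unadjusted p = 0.0514). In the authors' deposited table for this pair, the adjusted p is 0.651 for Sox11 and 0.736 for Nes.

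Several members changed the sign of their log2 value against p53_WT when replicate 3 of that group was left out. Without it, Sox4 in ATRXfl_G34R against p53_WT had a log2 value of -0.64 (SE 0.20, limma unadjusted p = 0.0120, adjusted p = 0.456), against 0.05 with it, and Sox6 had -0.64 against 0.30. In p53_G34R against p53_WT, Sox4 had -0.16 without that library and 0.53 with it, and Sox6 -0.44 and 0.50. In ATRXfl_WT against p53_WT, Sox6 had -1.04 (limma adjusted p = 0.685) without it and -0.10 with it. Nes had 0.69 without that library and 0.73 with it in ATRXfl_G34R, 0.54 and 0.57 in p53_G34R, and 0.58 and 0.62 in ATRXfl_WT, each against p53_WT. Sox11 had 0.75 without that library and 1.06 with it in ATRXfl_G34R against p53_WT. Without it, the limma unadjusted p of Sox11 was 0.0656 and the adjusted p 0.623. Vim was farther from p53_WT without that library, at 1.12 in ATRXfl_G34R, against 0.64 with it.

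**Figure D4:**
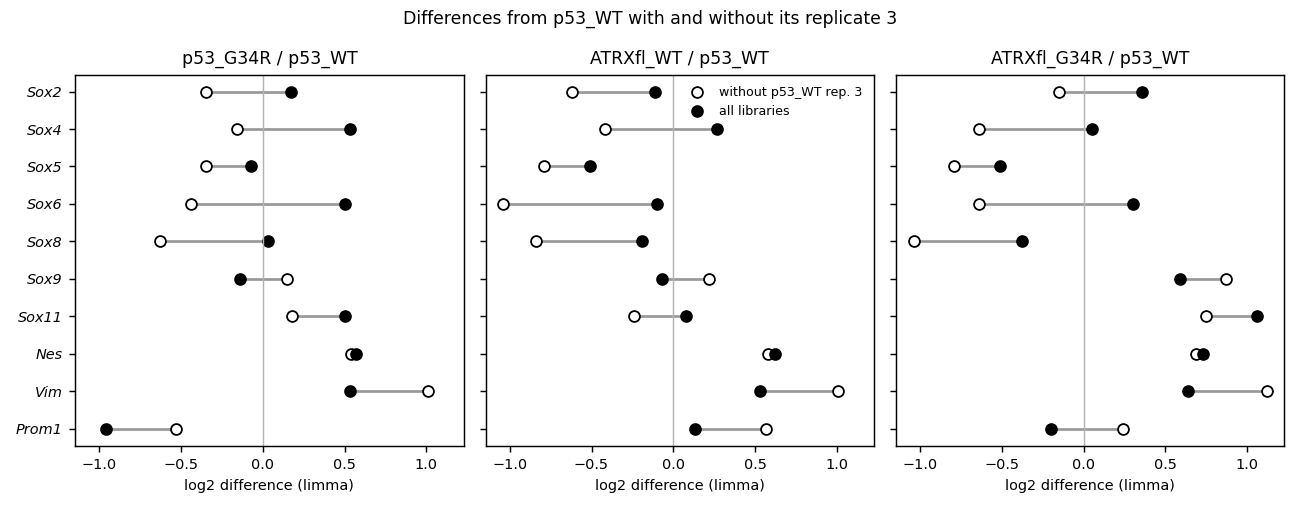
Log2 differences from p53_WT in 3 comparisons with all libraries (filled) and without p53_WT replicate 3 (open). Sox4 and Sox6 move below 0 in ATRXfl_G34R over p53_WT (-0.64 each), while Nes moves little (0.69 without that library and 0.73 with it).

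The number of the 10 members with a positive log2 value was 6 in ATRXfl_G34R against ATRXfl_WT (median 0.10), 7 in p53_G34R against p53_WT (median 0.33), 6 in ATRXfl_G34R against p53_G34R (0.13), 5 in ATRXfl_WT against p53_WT (0.00) and 7 in ATRXfl_G34R against p53_WT (0.33). Over all libraries it was 6 for floxed against intact (0.17), 7 for G34R against WT (0.29) and 5 for the interaction (-0.02). Without p53_WT replicate 3 these were 5 (-0.02), 6 (0.07) and 7 (0.38). All tested genes had medians of -0.01 to 0.00 in these comparisons. Between pairs of groups without that library, the counts were 4, 4 and 5 and the medians -0.26, -0.33 and 0.04 in p53_G34R, ATRXfl_WT and ATRXfl_G34R against p53_WT. For the same 3 comparisons with all libraries, the counts were 7, 5 and 7 with TMM scaling, 4, 4 and 5 with DESeq2 and with edgeR, and 6, 5 and 4 with limma-voom.

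The members also varied against each other from library to library. Over the 15 libraries, ranks of Sox5 and Vim ran opposite (Spearman rho -0.82, and -0.81 without p53_WT replicate 3), as did those of Sox8 and Vim (-0.76, and -0.71 without it). Sox5 and Sox8 went together (0.73 and 0.72). So did Sox5 and Sox6 (0.69 and 0.64), Sox2 and Sox11 (0.71 and 0.64), and Nes and Vim, more closely without that library (0.53 and 0.78). The SoxC pair did not: Sox4 and Sox11 had a rho of 0.00, and -0.23 without it. Nor did Sox8 and Sox9, at -0.30 and -0.19. These values describe 15 libraries that share their scaling, the mixture of cells in a tumour and 4 groups, whose part in them was not tested. The p53_WT replicate 1 had the highest Sox5 and Sox8 with the lowest Vim and Nes, and the highest oligodendrocyte progenitor sum (512047). By contrast, p53_G34R replicate 1 had the highest Vim with 1652 of Sox8 and the lowest progenitor sum of its group (175022). Sox10, on that progenitor list, went the other way, with 36601 in p53_G34R replicate 1 and 25936 and 29923 in the rest of its group.

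**Figure D5:**
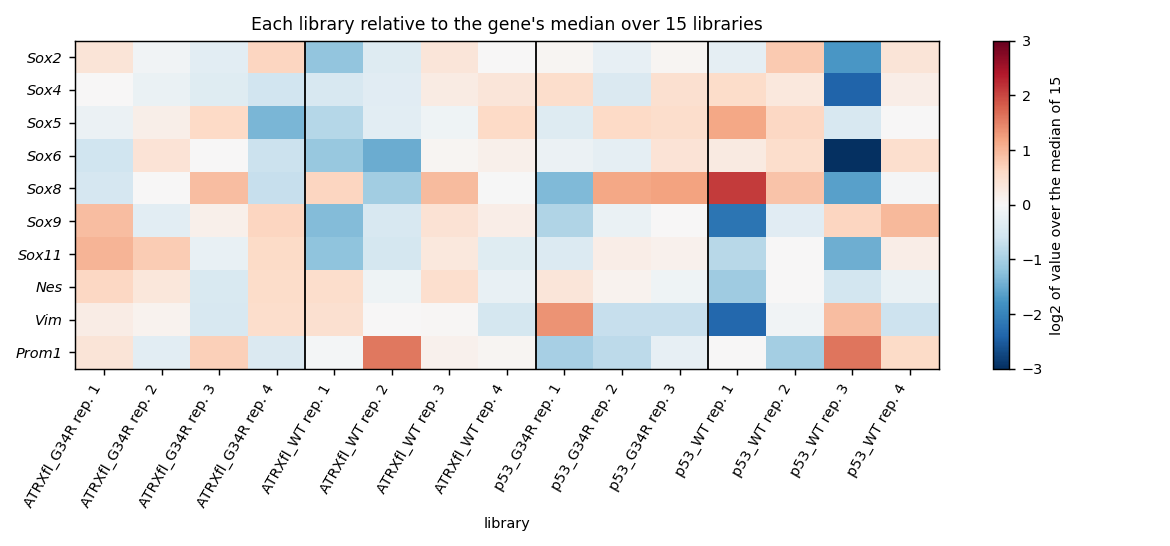
Log2 of each library's value over the gene's median of 15 libraries, genes down and libraries across, with lines between the groups; colours end at -3 and 3. The p53_WT replicate 3 column is low in Sox2, Sox4, Sox6, Sox8 and Sox11 and high in Vim and Prom1, and Sox8 and Vim take opposite colours in p53_WT replicate 1.

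Among 12488 genes ranked by Spearman correlation with each member over the 15 libraries, those most alike were Aimp2 for Sox2 (0.97), Fign for Sox4 (0.90), Senp7 for Sox5 (0.91), Lig3 for Sox6 (0.95) and Calcrl for Sox8 (0.97). They were Slc24a2 for Sox9 (0.84), Dph5 for Sox11 (0.91), Ywhaq for Nes (0.91), Cd151 for Vim (0.96) and Nos1ap for Prom1 (0.92). Without p53_WT replicate 3 these values were 0.85 or more. The top gene of so many ranked is high by choice, so the value describes likeness only.

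Other genes of the family and of neural stem cells were read from lists of 13 further Sox genes and 30 further stem and radial glia genes. Limma called 0 of either list in all 8 comparisons. Sry was at 0 in all libraries, and Sox14, Sox15 and Igf2bp1 were too low to test over the 15 libraries. By far the most abundant further Sox gene was Sox10, the SoxE factor of the oligodendrocyte lineage and also on the progenitor marker list, with a mean of 28818 over all 15, above all 7 Sox members in counts. It fell in a range of 25617 to 43600 in 14 libraries and was 2521 in p53_WT replicate 3.

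Of the further Sox genes, Sox7, a SoxF gene of blood vessels, averaged 571 ± 644 in floxed tumours (n = 8) and 188 ± 60.2 in intact ones (n = 7), with a log2 value of 1.18 (SE 0.46, limma unadjusted p = 0.0204, adjusted p = 0.820). ATRXfl_WT replicate 1, the library richest in endothelial and mural transcripts, held 2105 of Sox7, and without it the log2 value was 0.82. Sox12, the remaining SoxC gene, averaged 2485 ± 295 in ATRXfl_G34R (n = 4) and 3394 ± 483 in p53_G34R (n = 3), a log2 value of -0.45 (SE 0.19, limma unadjusted p = 0.0433). Neither passed the adjusted threshold.

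In the stem and radial glia list, the smallest p-values were those of Lhx2 and Hes1 in ATRXfl_G34R against p53_WT, where the groups did not overlap for either gene. Lhx2, a LIM homeobox factor of cortical progenitors, had 659, 692, 697 and 474 normalized counts in ATRXfl_G34R and 1281, 1212, 1380 and 1031 in p53_WT. The 4 p53_WT libraries stood above all 11 others, the highest of which was 818 in ATRXfl_WT. That split was seen in the values and was not tested, and its share over all genes was not counted. Lhx2 averaged 611 ± 103 in ATRXfl_G34R and 1184 ± 137 in p53_WT (log2 -0.96, SE 0.21, limma unadjusted p = 0.00150, adjusted p = 0.884), and DESeq2 alone called it (adjusted p = 0.0373).

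Hes1, a repressor induced by Notch that keeps progenitors undifferentiated, had 1697, 1708, 1239 and 1192 in ATRXfl_G34R and 484, 574, 493 and 979 in p53_WT. It averaged 1416 ± 279 in ATRXfl_G34R and 612 ± 229 in p53_WT (log2 1.25, SE 0.28, limma unadjusted p = 0.00163, adjusted p = 0.887). The groups did not overlap, and no tool called it. Pou3f2, a POU factor of neural progenitors, averaged 1125 ± 140 in ATRXfl_G34R and 790 ± 163 in ATRXfl_WT without overlap (log2 0.53, limma unadjusted p = 0.0357). Id4, an inhibitor of differentiation, averaged 77.7 ± 18.6 in p53_G34R and 418 ± 393 in p53_WT (log2 -2.05, limma unadjusted p = 0.0131), likewise without overlap. Of the p53_WT libraries, replicate 3 held 992 of Id4 and the others 152, 249 and 251, and without replicate 3 the log2 value was -1.50. Fgfr3 (897 ± 468 in ATRXfl_WT, 3176 ± 2416 in p53_WT) and Slc1a3 (6735 ± 3954 in ATRXfl_WT, 15363 ± 4865 in p53_WT), both also expressed by astrocytes, had log2 values of -1.67 and -1.34 (limma adjusted p = 0.975 each). Of the 8 astrocyte markers, 2 were numerically higher and 6 lower in ATRXfl_WT than in p53_WT, with sums of 24441 to 44173 in ATRXfl_WT and 18570 to 238893 in p53_WT, where the highest was replicate 3. Their part in these values was not tested.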

How the data were processed

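Per the submitters' processing notes, reads were processed with STAR 2.7, HTSeq and DESeq2 on mm10 (their settings and annotation: not given in the sources used here). Deposited by the authors were 5 tables, 1 for each pair of groups, with the signal of each library (read counts divided by a size factor) and its mean. The authors' own results stand beside it per the file headers: log2 fold change, standard error, Wald score, p-value and adjusted p-value. All library values were whole multiples of 1 read (100.0% within 0.01), so reads were recovered; 3 columns where 1 read is near 1 were not used for this. Because values are normalized, limma 3.58.1 (trend, robust; R 4.3.3) on log2(value + 1) was the main test, for genes whose mean reached 10, each pair on its own table, and the 3 comparisons over all libraries after joint median-of-ratios scaling of the reads. The pseudocount understates changes of low genes, and p-values measure the spread between libraries, which may be technical. Means and SDs of a pair use that table's values. IDs were matched to GENCODE vM21 (54165 of 54232, 99.9%). Alternatives were pseudocounts of 0.5 and 5, no filter, TMM, DESeq2 1.42.0, edgeR 4.0.16, limma-voom, all groups in 1 fit, summed libraries of a shared title code, a log2 Xist covariate, as sex is not labelled, and each library left out. Fits were tested on simulated data. The 10 members and all lists were chosen with earlier results of these data known. Outside the members, genes named are up to 6 of each of the 2 further lists, by their smallest p in any comparison, Atrx and the most alike gene of each member; Sox10, Sry, Sox14, Sox15, Igf2bp1 and Pdgfa were named after their values were seen.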

Additional observations from a re-analysis of the deposited data

Results flagged for a closer look

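Prom1 in ATRXfl_WT replicate 2 stood at 548 normalized counts, far from the other 3 libraries of its group (174, 190 and 200): the gap was 0.932 of the group's range, above Dixon's 95% critical value for 4 libraries. Chance flags about 1 in 20 such groups, and 30 groups (10 genes in 3 groups of 4 libraries) were examined. Without that library, Prom1 in ATRXfl_G34R against ATRXfl_WT had a log2 value of 0.05, against -0.33 with it.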

How the results depend on the processing

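Under every alternative run, 0 of the 10 members were called in each of the 8 comparisons, so leaving out each library in turn gave counts of 0 to 0. The smallest adjusted p of any member under any of them was 0.456 (Sox4, ATRXfl_G34R against p53_WT without p53_WT replicate 3). Of 1600 log2 values of members under the alternatives, 13 moved by at least their standard error, 6 of them without p53_WT replicate 3, 4 without another library and 3 under another setting. Of the other Sox and stem cell genes, the count called stayed 0 under the alternatives run, except that DESeq2 called 1 (Lhx2) in ATRXfl_G34R against p53_WT. DESeq2 also counted more calls over all genes than limma: 33 against 0 for ATRXfl_G34R against ATRXfl_WT, 14 against 0 for p53_G34R against p53_WT, 111 against 4 for ATRXfl_G34R against p53_G34R, 78 against 6 for ATRXfl_WT against p53_WT, 75 against 4 for ATRXfl_G34R against p53_WT, 101 against 19 for floxed against intact, 7 against 0 for G34R against WT and 16 against 0 for the interaction. The cause was not tested. Limma-voom called 50 for floxed against intact and edgeR 13. The median log2 of the members in p53_G34R against p53_WT was -0.07 with DESeq2 and 0.33 with limma. No paired analysis was possible because the labels give no replicate numbers. With 3 or 4 libraries a group and members that range up to 14.4 times between libraries, 95% intervals of Sox6 and Sox8 against p53_WT span more than a 2-fold difference in both directions.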
